A study of Mus musculus with 2 samples.

Results

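Mesothelial cells form the single-layered lining of the body cavities and of the organs in them, the gonadal fat pad included. They have a double character: they line a surface and carry keratins and cell junctions like an epithelium, and they also make vimentin, collagens and other matrix like the mesenchyme they develop from. Mesothelin, uroplakins and the transcription factor WT1 are among their classical markers, they spread a film of mucins and other glycoproteins over the serosal surface, and they secrete complement and protease inhibitors into the serous fluid. In gonadal fat they cover the outside of the depot and come off with the stromal vascular fraction (SVF) when the tissue is digested.

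Of the 4839 cells kept here, 128 were chosen by their measured levels of mesothelial markers: 109 of 3881 in the library of littermate controls and 19 of 958 in the library of Adipo-Pgam1 KO mice. A cell was taken when it had at least 500 detected genes, at most 10% mitochondrial UMIs, at least 4 UMIs summed over Msln, Upk3b, Lrrn4, Upk1b and Krt19, at least 1 of them from Upk3b, Lrrn4 or Krt19, and no UMI of Ptprc, the pan-leukocyte gene, or of Pecam1, the endothelial adhesion gene. A UMI is the tag that marks 1 captured transcript molecule. The study removed Pgam1, a phosphoglycerate mutase of glycolysis, from adipocytes with Adipoq-Cre and floxed Pgam1. Both libraries were 10x Genomics 3′ libraries of the SVF from gonadal white adipose tissue (gWAT) of male C57BL/6 mice aged 13 weeks. The control is called littermate wildtype in the labels and, in the study's methods, was Pgam1 flox/flox without Cre. Adipoq-Cre is driven by the promoter of the adiponectin gene, and whether Pgam1 was deleted in any mesothelial cell was not tested. The number of mice behind each library was not given in the sources used here.

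The 109 control and 19 KO cells held 1406344 and 256715 UMIs, with a median of 12314 and 15759 UMIs and 4012 and 4563 genes per cell. The libraries held 8522 and 2730 barcodes with a median of 2957.5 and 2387 UMIs, and no barcode of a kept cell occurred in both. Levels are given as CPM, the UMIs of a gene scaled to a total of 1000000 UMIs over the summed cells in question, control first and KO second. With 1 library per genotype no KO to control difference could be tested, and every interval is an exact 95% interval for counting error alone, which does not cover differences between mice. The lymphocytes of the same libraries (584 and 209 cells, median 4458.5 and 5868 UMIs) serve to show the level that free RNA reaches in cells that do not make these transcripts.

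The genes of the rule are described here without a test, since they chose the cells. Msln, which encodes the surface glycoprotein mesothelin, lies at chr17:25748613-25754378 on the minus strand of GRCm38 and was at 801 CPM (interval 755 to 850) in control and 732 CPM (631 to 845) in KO cells. Upk3b (chr5:136038496-136046487, plus strand), a uroplakin of the apical membrane, was at 2465 and 2376 CPM, and in lymphocytes at 30.7 and 0.738 CPM. Lrrn4 (chr2:132868305-132880891, minus strand), a leucine-rich repeat membrane protein, was at 683 and 608 CPM. The tetraspanin Upk1b (chr16:38773184-38800328, minus strand) was at 584 and 534 CPM, and the keratin Krt19 (chr11:100140810-100148665, minus strand) at 599 and 662 CPM. Their log2 ratios KO to control ran from −0.17 for Lrrn4 to 0.14 for Krt19, each with a counting interval that covered 0. All 5 were detected together in 71 control and 11 KO cells, and their summed UMIs per cell had a median of 61 and 43 and a range of 4 to 246 and 4 to 235.

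Some cells lay close to the threshold of 4 UMIs. Just inside it, with sums of 4 to 7, were 16 control and 5 KO cells, of which 2 and 0 had a UMI of Wt1 and 7 and 3 a UMI of Gpm6a, Muc16 or Krt8. Just outside it, with sums of 2 to 3, were 21 control and 6 KO cells, of which 4 and 0 had Wt1 and 13 and 4 had Gpm6a, Muc16 or Krt8. Among the 93 and 14 cells with sums of 8 or more, these numbers were 78 and 11 for Wt1 and 91 and 13 for the other 3 genes. The cells just inside the threshold had a median depth of 3674.5 UMIs (control) and 6570 UMIs (KO).

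The label held for most but not all of the 128 cells. In a clustering of all kept cells that left out the genes of the rule, 114 of the 128 (89.1%) fell into 1 of 22 clusters, and made up 83.2% of its 137 cells. A further 7 control and 3 KO cells, picked out after the data were seen by at least 2 UMIs of the epithelial genes Epcam, Cldn7, Pax8 and Esrp1, lay outside that cluster. They had entered almost wholly through Krt19: 6 and 3 of them had no UMI of Msln, Upk3b, Lrrn4 or Upk1b, the remaining one had 1, and none had Wt1. All 10 had UMIs of Sox9, 4 and 3 had Mmp7, the epithelial metalloprotease matrilysin, and 4 and 2 had Foxj1 or Tmem212, genes of ciliated cells. These epithelial-marker cells made up 6.42% of the control and 15.8% of the KO members and 7.93% and 17.9% of their UMIs. The remaining 102 and 16 cells are called the mesothelial cells without epithelial-marker cells, and KO to control results and list counts that change without the 10 cells are given both ways. The name does not exclude cells with fibroblast RNA. Of the 102 control cells, 4 lay outside the cluster, and 15 are mixed cells as defined below. Among the mixed cells is 1 with 25 UMIs of Dpt and 12 of Lum, both fibroblast markers, beside 3 of Upk3b and 0 of Msln.

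**Figure D1:**
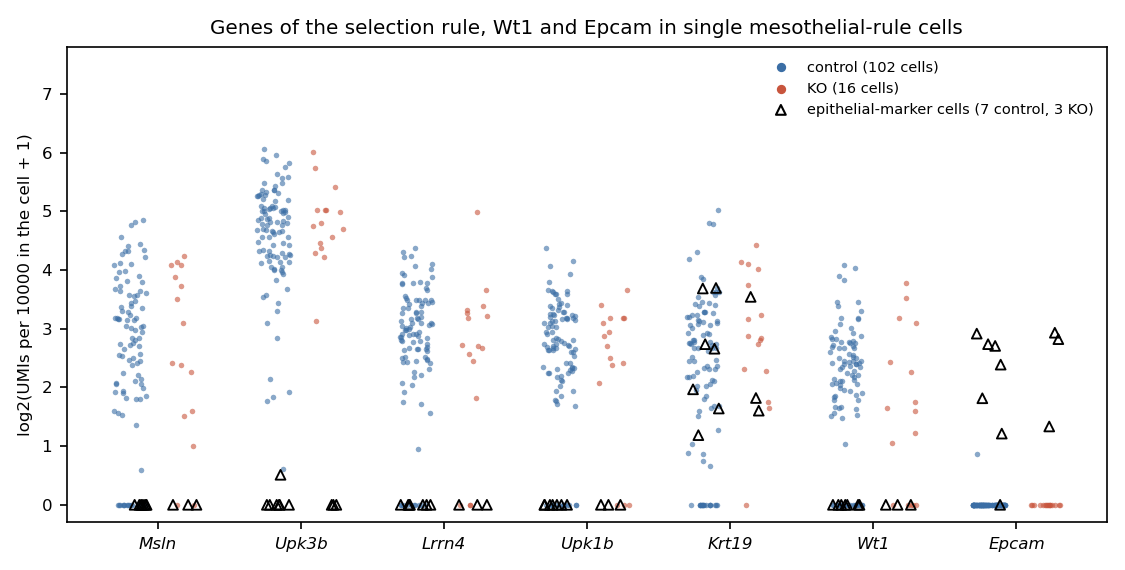
Each point is 1 cell, with its log2 of UMIs per 10000 (plus 1) of the 5 genes of the rule, of Wt1 and of Epcam. The epithelial-marker cells (triangles, 7 control and 3 KO) sit at 0 for Wt1 and, but for 1 UMI in 1 cell, for Msln, Upk3b, Lrrn4 and Upk1b, reach the level of the other cells in Krt19, and 9 of the 10 have Epcam, which 1 other cell has.

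RNA of other cell types was present too, and differed between the libraries. The 8 fibroblast markers summed to 19669 and 14522 CPM, against 38943 and 39922 CPM in the fibroblasts of the same libraries (818 and 180 cells). In the control library 15 cells, with 17.9% of the UMIs, carried at least 3 UMIs of Dpt, Lum and Pi16, 2 of Cdh5 and Cldn5, or 5 of Lyz2, C1qa and C1qb, while 0 of the KO cells did; they are called mixed cells below. The 5 erythroid markers summed to 10015 and 518 CPM, and 5 control cells held 6469 of the 6999 control UMIs of Hbb-bs. The 7 blood endothelial markers summed to 111 and 144 CPM, with Cdh5 and Emcn at 0 and Pecam1 at 0 by the rule itself. The T and NK markers summed to 0 and 3.90 CPM, and the 8 macrophage markers to 122 and 50.6 CPM. The rule also took only cells with 0 UMIs of Ptprc, so these endothelial and leukocyte sums are not independent of it. The adipocyte markers, at 9.95 and 19.5 CPM with Plin1 and Lep at 0, were close to absent.

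Mesothelial markers that the rule had not used separated these cells from fibroblasts and from endothelial cells (166 and 63 cells). The marker list was put together with earlier results of these data known. Its calls are therefore a description and no independent support for the label. All 13 of the 15 listed markers that could be tested were higher in mesothelial cells than in both, by edgeR's quasi-likelihood test at a Benjamini-Hochberg adjusted p of 0.05 over 10762 genes, where 14.6% of all genes were called higher against fibroblasts and 19.7% against endothelial cells. Calb2, the calretinin gene, and Upk3bl had 0 UMIs in all 128 cells, which allows a level of up to 1.80 CPM for each. The test took the 2 libraries as the replicates of a cell type (n = 2), with library as a term. The libraries also differ in genotype, and whether each came from 1 mouse or several is unknown. The cells of each type were selected on measured markers of the same cells, and the 14 genes used for that choice were left out of the counts. Endothelial cells had at least 3 UMIs of Pecam1, Cdh5 and Cldn5, with Pecam1 among them, and none of Ptprc or Pdgfra. They held blood endothelial markers at 6885 and 7467 CPM and lymphatic endothelial markers at 3817 and 1422 CPM, so the group was not of blood vessels alone.

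Muc16, the membrane mucin that is the binding partner of mesothelin, was at 369 and 339 CPM in mesothelial cells, at 0.107 and 0.381 CPM in fibroblasts and at 1.03 and 0 CPM in endothelial cells. Its log2 fold change against fibroblasts was 10.69 ± 0.38 (SE). Wt1 (chr2:105126529-105173616, plus strand), the zinc finger factor of the developing mesothelium, was at 397 and 358 CPM against 105 in the fibroblasts of both libraries, a log2 fold change of 1.82 ± 0.19. Fibroblasts of this visceral depot held Wt1 as well, whereas it was at 1.03 and 0 CPM in endothelial cells. The basonuclin Bnc1, a zinc finger factor of epithelia, was at 146 and 136 CPM and at 0.320 and 0.381 CPM in fibroblasts. Aldh1a2, which makes retinoic acid, had the smallest difference of the 13, at 76.1 and 101 CPM against 24.2 and 38.1 CPM (1.53 ± 0.24). The median log2 ratio of the markers to fibroblasts was 6.55 (control) and 6.90 (KO).

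**Figure D2:**
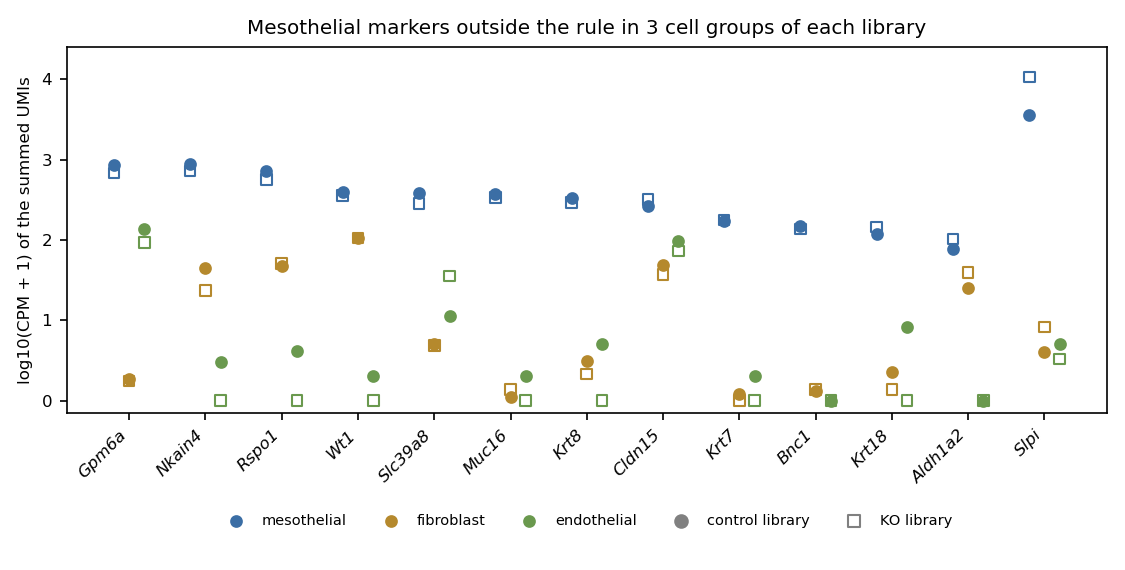
Levels of the 13 markers outside the rule, as log10 of CPM (plus 1) of the summed UMIs, in mesothelial cells, fibroblasts and endothelial cells of the control (filled circles) and KO library (open squares). Every marker is higher in mesothelial cells than in fibroblasts in both libraries, with Wt1 and Aldh1a2 closest to the fibroblast level, and Slpi is the one marker whose mesothelial level lies more than 2-fold apart between the libraries.

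Across all genes, 1569 of 10762 (14.6%) were higher and 1437 (13.4%) lower than in fibroblasts, and 2121 (19.7%) were higher and 1770 (16.4%) lower than in endothelial cells. In 2973 of the 3006 genes called against fibroblasts the direction was the same in both libraries. 944 genes (8.77%) were higher against both. Among these the largest fold change against fibroblasts belonged to Pkhd1l1, which encodes a large membrane protein related to fibrocystin, at 263 and 273 CPM in mesothelial cells and with 0 UMIs in the 998 fibroblasts, at least 1057-fold higher. Isl1, a LIM-homeodomain factor of cardiac and mesodermal progenitors, was at 96.0 and 70.1 CPM and had no UMI in fibroblasts either, at least 368-fold higher. Fam84a (at least 248-fold), the lncRNA A730046J19Rik (at least 274-fold), the intracellular chloride channel protein Clic3 (at least 173-fold) and the zinc importer Slc39a4 (at least 142-fold) had 0 UMIs in fibroblasts as well. The call of Slc39a4 against endothelial cells was lost without the epithelial-marker cells (log2 fold change 0.71). Krt7, a keratin of simple epithelia, was at 172 and 175 CPM against 2 UMIs in all fibroblasts, a ratio of 1035 with a counting interval of 284 to 8584.

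The other 8 of the 15 largest were Muc16, Slpi, Gpm6a, Lgals2, Chst4, Fxyd3, Cobl and Cxadr, with log2 fold changes from 8.66 to 10.69. Chst4 encodes a sulfotransferase for sugars of mucin-type glycoproteins, Cobl an actin nucleator, Fxyd3 a regulator of the sodium pump, and Cxadr the coxsackievirus and adenovirus receptor of tight junctions. Fxyd3 was at 161 and 526 CPM, and Lgals2, a galectin, at 96.7 and 253 CPM, against 0.660 and 0 CPM and 0 CPM in lymphocytes. Lymphocytes thus held almost none of either. The 10 genes with the largest difference the other way were Aox3, Osr2, Tenm2, Thbs2, Rspo3, Pde11a, Nav3, Cldn11, Col23a1 and Hhip. All 10 had 0 UMIs in the 128 cells, which bounds their mesothelial level at 0.0260 times the fibroblast level for Aox3, an aldehyde oxidase, and at 0.0627 times for Hhip, the hedgehog-binding inhibitor.

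In cells thinned to 2000 UMIs, which removes the difference in depth, the genes outside the rule that set mesothelial cells apart most from lymphocytes were Aebp1, Igfbp6, Efemp1, Clu and Rarres2. Aebp1, a secreted collagen-binding protein, was found in 90.3% of 113 mesothelial cells and in 1.71% of 762 lymphocytes. Igfbp6 was found in 90.3% and 3.94%, and Efemp1, a fibulin of elastic matrix, in 89.4% and 3.54%. For Clu, the extracellular chaperone clusterin, the shares were 86.7% and 1.57%, and for Rarres2, which encodes the chemoattractant chemerin, 87.6% and 3.02%. Thinning left out 15 mesothelial cells and 31 lymphocytes with fewer UMIs. Fibroblasts were not part of this comparison. In the edgeR test, without thinning, the log2 fold change of Aebp1 against fibroblasts was 2.10, and fibroblast levels of the other genes are given below.

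The gene lists by function covered both the epithelial and the mesenchymal side of these cells. Of the 14 tested junction genes, 13 were higher than in fibroblasts and 0 lower, and 11 of them were still called higher without the epithelial-marker cells. Cgn, the tight junction plaque protein cingulin, was at 61.9 and 70.1 CPM against 0.640 and 0 CPM in fibroblasts (log2 fold change 6.90 ± 0.54), and F11r, the junctional adhesion molecule A, at 233 and 210 CPM against 8.43 and 6.49 CPM (4.83 ± 0.23). Cldn3, a claudin of epithelia, was at 56.2 and 50.6 CPM against 2.35 and 1.91 CPM (4.57 ± 0.44). The cadherin at the highest fold change was Cdh3, at 39.8 and 42.8 CPM against 1.28 and 1.14 CPM (4.96 ± 0.55), while Cdh11, a mesenchymal cadherin, was at 523 and 300 CPM against 39.1 and 54.2 CPM (3.19 ± 0.24). Cdh1, E-cadherin, had 8 and 0 UMIs and was too low to test. Against endothelial cells, which have tight junctions of their own, 7 junction genes were higher and 5 lower.

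Among 5 tested keratins and intermediate filament genes, Krt7, Krt8 and Krt18 were higher and Des, desmin, was lower than in fibroblasts. Krt8 was at 334 and 292 CPM against 2.13 and 1.14 CPM, and Krt18, its partner, at 119 and 144 CPM against 1.28 and 0.381 CPM. Vim, vimentin, was at 1435 and 1219 CPM against 1723 and 1816 CPM, and that difference did not pass the test (log2 fold change −0.45). It passed, as lower, in 5 of the alternatives, with −0.79 under looser cell filters (200 genes, 20% mitochondrial UMIs) and −0.49 to −0.52 in the other 4. Of the keratins of stratified epithelium, Krt5 had 0 UMIs, and Krt14 had 2 UMIs in control and 7 in KO cells, which held 1406344 and 256715 UMIs. In the uroplakin family only the genes of the rule were present: Upk1a had 2 and 0 UMIs, and Upk2, Upk3a and Upk3bl had none. Of 11 tested surface and glycocalyx genes, 8 were higher than in fibroblasts and 1, the hyaluronan synthase Has2, lower. Besides Muc16 and Gpm6a, the 8 included Podxl, the sialomucin podocalyxin (250 and 148 CPM against 1.60 and 1.14 CPM), and Ezr, ezrin, which ties microvilli to actin (454 and 541 CPM against 35.0 and 27.8 CPM). Against endothelial cells 7 of the surface genes were higher and 2, Podxl among them, lower.

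Genes of transport across the lining were nearly all higher, 11 of 12 tested against fibroblasts and 10 against endothelial cells. The sodium pump subunit Atp1b1 was at 541 and 830 CPM, against 7.15 and 14.1 CPM in fibroblasts (log2 fold change 6.05 ± 0.27). Scnn1a, the alpha subunit of the epithelial sodium channel, was at 50.5 and 58.4 CPM against 0.320 and 0.763 CPM (6.77 ± 0.56). The water channel Aqp5 was at 52.6 and 35.1 CPM against 0.107 and 0 CPM (8.53 ± 0.74). The chloride channel Cftr was at 17.8 and 35.1 CPM against 0.213 and 0 CPM (6.65 ± 0.93). Slc16a1, a lactate and pyruvate carrier, was at 347 and 483 CPM against 7.15 and 8.77 CPM (5.64 ± 0.23). The 1 member lower than in fibroblasts was Slc9a3r2, a scaffold of ion exchangers.

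Matrix genes lay on the other side. Of 22 tested interstitial matrix genes, 19 were lower and 2 higher than in fibroblasts, while 16 were higher and 4 lower than in endothelial cells, so their level was between those of the other cell types. Col1a2 was at 2857 and 1811 CPM in mesothelial cells, at 4845 and 4848 CPM in fibroblasts and at 47.4 and 36.9 CPM in endothelial cells. Col3a1 was at 3841 and 3401 CPM, against 5358 and 6936 CPM in fibroblasts (−0.82 ± 0.21). The small proteoglycan Lum, at 27.7 and 3.90 CPM against 917 and 1159 CPM, was among the genes that chose the fibroblasts and is given as a description. The 2 members higher than in fibroblasts were the fibulins Efemp1, at 2750 and 2158 CPM against 825 and 610 CPM (1.74 ± 0.20), and Fbln1, at 806 and 658 CPM against 369 and 486 CPM (0.77 ± 0.21). Lymphocytes held 140 and 196 CPM of Col1a2 and Col3a1 in the control library, the level that free RNA could add. This level differed between the libraries: the 8 fibroblast markers summed to 1074 CPM in control and 210 CPM in KO lymphocytes.

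Of 21 basement membrane genes tested, 15 were lower and 5 higher than in fibroblasts. Col4a1 was at 304 and 81.8 CPM against 2669 and 2231 CPM (−3.70 ± 0.27) and Nid1, nidogen 1, at 240 and 129 CPM against 1531 and 1281 CPM (−2.92 ± 0.22). The 5 higher genes were Col18a1, Nid2, Agrn, Lama5 and Lama3. Nid2 was at 312 and 288 CPM against 107 and 115 CPM (1.42 ± 0.19), and Lama5, a laminin chain of epithelia, at 22.8 and 31.2 CPM against 3.10 and 4.58 CPM (2.79 ± 0.38). Of 19 tested genes of mesothelial to mesenchymal transition, in which lining cells turn into fibroblast-like cells, 13 were lower and 2 higher than in fibroblasts. The 2 were Tgfb3, at 88.2 and 70.1 CPM against 27.2 and 20.2 CPM, and the matricellular gene Cyr61, at 272 and 362 CPM against 98.5 and 105 CPM. The transition factors Snai1 and Snai2 had 7 and 0 and 2 and 0 UMIs in mesothelial cells.

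Of the 18 tested transcription factors, 9 were higher and 5 lower than in fibroblasts, and 13 were higher and 4 lower than in endothelial cells. Sox6 was at 125 and 109 CPM against 1.60 and 0.381 CPM in fibroblasts (6.49 ± 0.35), and Gata6, a factor of visceral mesoderm, at 233 and 249 CPM against 96.7 and 90.8 CPM (1.30 ± 0.19). Tcf21, a factor of fibroblast progenitors, went the other way, at 4.98 and 0 CPM against 147 and 198 CPM (−5.23 ± 0.38). In retinoid metabolism 4 of 13 tested genes were higher and 5 lower. Aldh1a1 was at 1096 and 814 CPM against 238 and 242 CPM (1.94 ± 0.21) and Rarres2 at 3118 and 3451 CPM against 755 and 775 CPM (2.06 ± 0.21), whereas Aldh1a3, another retinaldehyde dehydrogenase, was at 2.13 and 0 CPM against 188 and 303 CPM (−6.83 ± 0.41). Of the retinaldehyde dehydrogenases, Aldh1a1 and Aldh1a2 were higher in the mesothelium and Aldh1a3 in the fibroblasts.

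Complement and host defence genes were split, with 14 of 26 tested higher and 8 lower than in fibroblasts, and 16 higher and 4 lower than in endothelial cells. C3, the central complement component, was at 5106 and 6073 CPM against 2634 and 4950 CPM in fibroblasts (0.56 ± 0.20), a call that 6 of the alternatives did not keep. C2 was at 959 and 830 CPM against 56.0 and 138 CPM (3.34 ± 0.26), and Cfb, factor B of the alternative pathway, at 154 and 312 CPM against 12.3 and 48.4 CPM (3.16 ± 0.23). Clu was at 1406 and 1465 CPM against 8.43 and 2.29 CPM (7.75 ± 0.33). The cytokines Il18 and Il33 were at 149 and 97.4 CPM and 181 and 203 CPM, above fibroblasts with 11.7 and 14.5 CPM and 36.2 and 46.5 CPM. Ptgis, prostacyclin synthase, was at 654 and 549 CPM against 213 and 192 CPM (1.53 ± 0.19), and Ptges, a prostaglandin E synthase, was lower, at 10.7 and 7.79 CPM against 118 and 131 CPM (−3.58 ± 0.31). The chemokines Ccl2 and Ccl7 were lower as well, with 7 and 0 and 3 and 1 UMIs in mesothelial cells. In coagulation and fibrinolysis 3 of 12 tested genes were higher and 6 lower. Thbd, the anticoagulant receptor thrombomodulin, was at 932 and 596 CPM against 210 and 129 CPM (2.15 ± 0.21). Plat and Plau, the plasminogen activators, were lower, Plat at 151 and 144 CPM against 304 and 256 CPM and Plau at 45.5 and 0 CPM against 329 and 161 CPM.

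In the IGF and Wnt axis 10 of 23 tested genes were higher and 11 lower than in fibroblasts. Igfbp2, Igfbp4, Igfbp5 and Igfbp6, which bind and hold IGFs, were higher. Igfbp2 was at 427 and 436 CPM against 2.13 and 0.763 CPM (7.88 ± 0.29), Igfbp6 at 4918 and 4382 CPM against 1052 and 988 CPM (2.14 ± 0.19), and Igfbp4 at 2084 and 1317 CPM against 738 and 748 CPM (1.14 ± 0.20). The ligand gene Igf1 was lower, at 79.6 and 85.7 CPM against 1028 and 1299 CPM (−3.82 ± 0.23). Of the R-spondins, which amplify Wnt signals, Rspo1 was at 725 and 561 CPM against 45.7 and 50.0 CPM (3.73 ± 0.22), and Rspo3 had 0 UMIs in mesothelial cells and 41.9 and 77.4 CPM in fibroblasts. Rspo1 was higher in the lining and Rspo3 in the fibroblasts.

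Of 20 tested adipocyte and progenitor genes, 12 were lower and 4 higher than in fibroblasts. Dpp4, which also marks a fibroblast progenitor, was among the higher ones, at 447 and 495 CPM against 61.3 and 32.8 CPM (3.26 ± 0.21), and Cd34 was at 589 and 296 CPM against 576 and 395 CPM, with no call. Adipoq had 1 UMI in each library and Plin1 none. Of the beige primer list of the study, Ucp1 and Cpt1b had 0 UMIs in the 128 cells, and of the 4 members that could be tested 2 were higher than in fibroblasts, Egln3 and Mtus1, and 3 lower than in endothelial cells. Egln3, an oxygen sensor, was at 27.0 and 23.4 CPM against 1.71 and 1.14 CPM (4.03 ± 0.60).

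Of 19 tested glycolysis genes, 9 were higher and 0 lower than in fibroblasts. With the epithelial-marker cells left out, 8 were higher and 1 lower. Pkm was at 265 and 296 CPM against 120 and 131 CPM (1.12 ± 0.18), Ldhb at 161 and 152 CPM against 60.3 and 71.7 CPM (1.26 ± 0.21), and Aldoc at 18.5 and 31.2 CPM against 0.640 and 0.763 CPM (4.89 ± 0.76). MHC and antigen presentation genes were higher in 9 of 12 tested and lower in 0, or in 7 and 0 without the epithelial-marker cells. H2-K1, an MHC class I heavy chain, was at 1178 and 1375 CPM against 429 and 501 CPM (1.42 ± 0.19) and B2m at 1978 and 1983 CPM against 871 and 975 CPM (1.06 ± 0.18). The class II genes H2-Aa, H2-Ab1 and Cd74 were called higher with the epithelial-marker cells and not without them. In the Leiden cluster, which held none of these 10 cells but also held cells outside the rule, the 3 genes were called higher again, with log2 fold changes of 1.60, 1.52 and 1.47.

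Interferon-stimulated genes were higher in 10 of 22 tested and lower in 0 than in fibroblasts, and higher in 3 and lower in 11 than in endothelial cells. Oasl2 was at 163 and 206 CPM against 20.8 and 30.9 CPM (2.83 ± 0.24) and Gbp2 at 156 and 140 CPM against 41.3 and 55.3 CPM (1.66 ± 0.21). Of all genes, 14.6% were higher and 13.4% lower than in fibroblasts. Clock and cell cycle genes lay near these shares, with 2 of 18 higher and 3 lower, and 1 of 9 higher and 1 lower. The remaining lists had larger shares on both sides. Of 17 immediate early genes 6 were higher and 7 lower, and of 14 heat shock chaperones 4 were higher and 3 lower. Of 9 iron and metallothionein genes 2 were higher and 5 lower. The 2 of the last list were the metallothioneins Mt1 and Mt2, with Mt1 at 1342 and 845 CPM against 356 and 715 CPM (1.07 ± 0.26). Mki67, the proliferation marker, had 0 UMIs in the 128 cells.

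Leaving out the epithelial-marker cells also changed other counts of the lists. Against fibroblasts, the lower genes then numbered 6 in the retinoid list, 7 in the complement list, 7 in coagulation, 18 in interstitial matrix, 12 in the transition list, 10 in the IGF and Wnt axis, 11 among adipocyte and progenitor genes, 4 among clock genes and 6 among immediate early genes. Heat shock chaperones then had 3 higher and 2 lower genes, and interferon-stimulated genes 11 higher. Against endothelial cells, 6 junction genes, 12 transcription factors and 9 transport genes were then higher, interferon-stimulated genes had 4 higher and 10 lower, and 2 beige genes were lower.

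**Figure D3:**
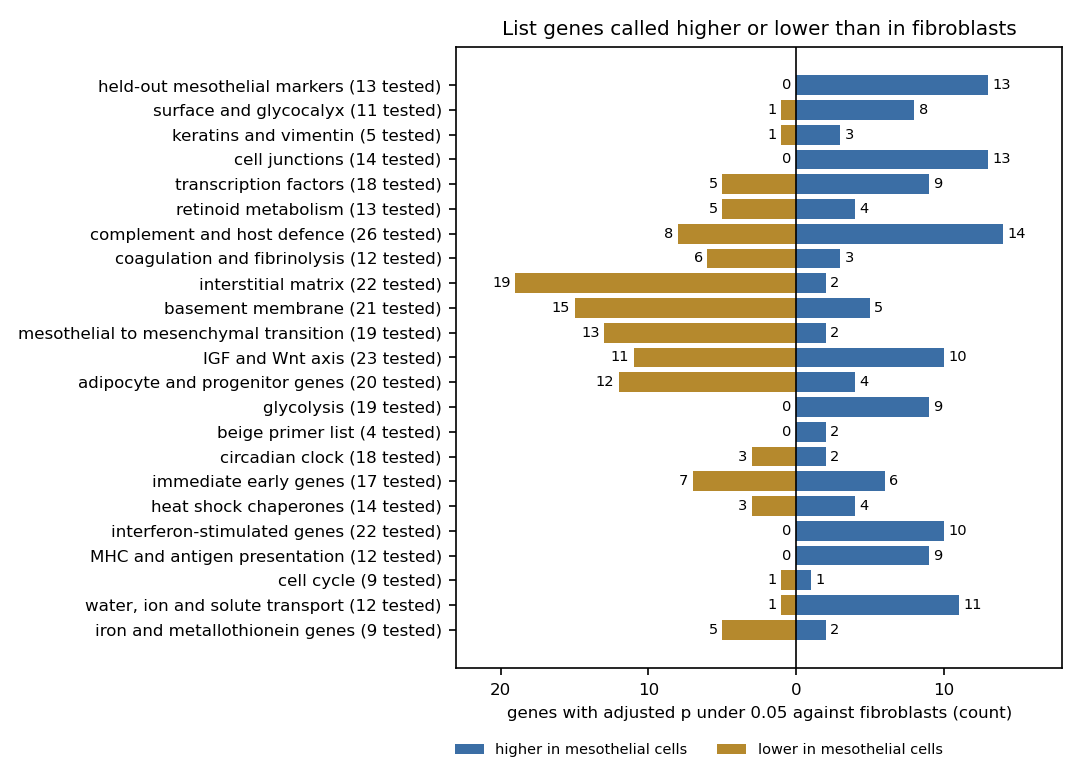
Number of genes of each list called higher (blue, to the right) or lower (ochre, to the left) in mesothelial cells than in fibroblasts, at an adjusted p of 0.05, with the number tested in brackets. Junction, transport and interferon-stimulated genes lie to the right, and interstitial matrix (19 lower), basement membrane (15) and transition genes (13) to the left, beside 14.6% and 13.4% of all genes.

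The study asked what loss of Pgam1 in adipocytes does to gonadal fat, and the KO library lets the lining of the depot be set beside that of littermate controls. Mesothelial cells made up 2.81% (2.31 to 3.38) of the kept control cells and 1.98% (1.20 to 3.08) of the kept KO cells, and the intervals overlapped. Without the epithelial-marker cells the shares were 2.63% (2.15 to 3.18) and 1.67% (0.958 to 2.70), and of Ptprc-negative cells 6.57% (5.43 to 7.87) and 4.81% (2.92 to 7.41). A share in a digested tissue also depends on how many cells of each type the digestion released, which cannot be told apart here.

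Pgam1 (chr19:41911923-41918660, plus strand) was at 134 CPM (116 to 155) in control and 125 CPM (85.3 to 176) in KO mesothelial cells, with UMIs in 70 and 12 of the cells. The log2 ratio KO to control was −0.11 (−0.70 to 0.44), and −0.07 (−0.74 to 0.55) without the epithelial-marker cells. At this depth no difference could be detected, and 3′ counts do not show whether an exon is missing. Msln, Upk3b and Wt1 had ratios of −0.13, −0.05 and −0.15, or 0.04, 0.11 and 0.02 without the epithelial-marker cells, all with intervals that covered 0.

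Among the 5381 genes with at least 50 UMIs, 116 (2.16%) had a KO level 2-fold or more above that of the control, and 384 (7.14%) a level 2-fold or more below it. Leaving out the epithelial-marker cells gave 86 (1.77%) and 321 (6.59%) of 4871 genes. In 254 of the 384 lower genes the interval excluded 0, against all 116 of the higher ones. The KO cells had 256715 UMIs, so a gene at 50 UMIs in all had few UMIs there. With mixed cells left out as well, 63 genes were higher and 195 lower, and without the 1 cell of each library that held most UMIs of a gene 62 were higher and 714 lower. That step takes away 1 of 19 KO cells but 1 of 109 control cells, so it tends to lower the ratios. The same holds for each ratio without the top cells given below.

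The 10 genes with the highest KO to control ratio were Cmah, Mmp7, Ptgds, Gstm7, Net1, Slc12a2, Aqp1, Cd74, Gk and Gstm5, with log2 ratios from 2.20 to 3.02, and 8 of them rested on the epithelial-marker cells. All 50 KO UMIs of Mmp7, all 37 of Gstm7, a glutathione S-transferase, and all 38 of Gk, glycerol kinase, came from those 3 cells. Of Ptgds, prostaglandin D synthase, 53 of 59 KO UMIs came from 1 cell, and its ratio was 2.84 with and 0.16 without the epithelial-marker cells. For Net1, a guanine nucleotide exchange factor, Slc12a2, a sodium, potassium and chloride carrier, and Gstm5 the ratio went from 2.55, 2.45 and 2.20 to 0.66, 0.03 and −0.52. For Cd74, the invariant chain of MHC class II, it went from 2.38 to −1.49, and lymphocytes, which make it, were present in both libraries. The 2 genes that stayed were Cmah and Aqp1.

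Without the epithelial-marker cells the 10 highest ratios belonged to Cmah, Aqp1, Cybrd1, Fxyd3, Slpi, Erdr1, Lgals2, Grcc10, Sgms2 and Prr15. Cmah, which makes the sialic acid Neu5Gc, was at 15.4 and 147 CPM, a log2 ratio of 3.25 (2.39 to 4.14), from 7 control and 5 KO cells, and 19 of its 31 KO UMIs lay in 1 cell. Aqp1, the water channel of mesothelium and endothelium, was at 23.9 and 128 CPM (2.42, 1.62 to 3.21), in 13 control and 5 KO cells, beside an endothelial level of 1190 and 2084 CPM. Cybrd1, a ferric reductase, was at 47.9 and 195 CPM (2.02, 1.42 to 2.61), and 21 of its 41 KO UMIs lay in 1 cell. Fxyd3 was at 175 and 640 CPM (1.88, 1.56 to 2.19) and Lgals2 at 105 and 308 CPM (1.55, 1.10 to 1.99), in 37 and 9 and in 43 and 10 cells. Over all members, each of these 5 genes still had a higher level in the KO cells when the cell of each library with most of its UMIs was left out, with log2 ratios from 1.13 for Cybrd1 to 2.47 for Aqp1, whereas Prr15 went from 1.29 to −0.31. Erdr1 had ratios of 1.73 and 2.13 in fibroblasts and endothelial cells too, and Grcc10 of 0.99 and 1.06.

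**Figure D4:**
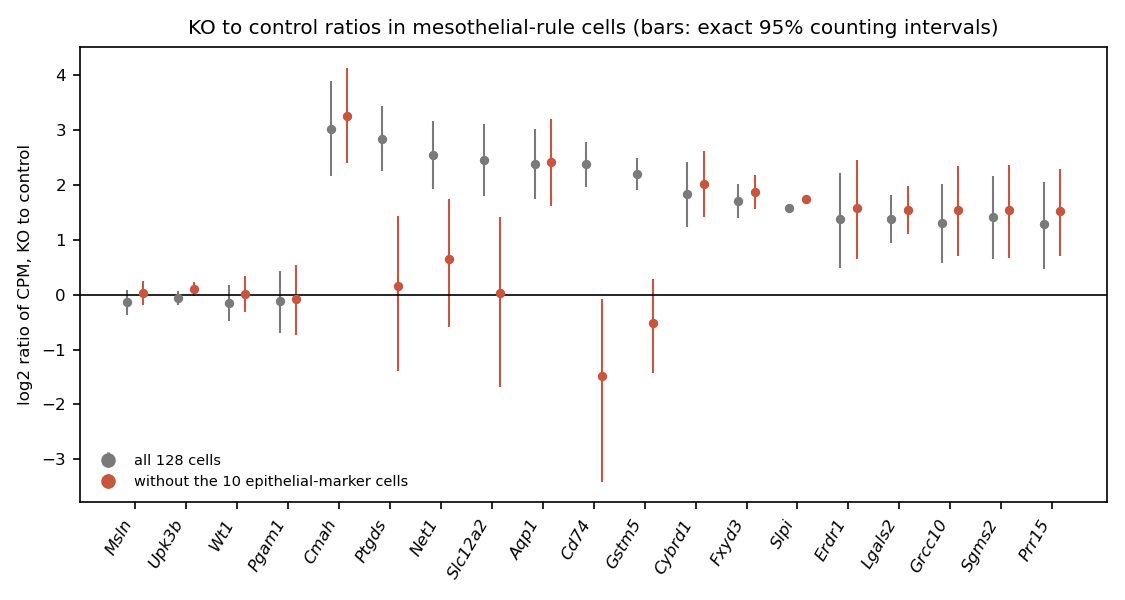
Log2 ratio of CPM, KO to control, with exact 95% counting intervals, for 2 genes of the rule, Wt1, Pgam1 and the genes with the highest ratios, in all 128 cells (grey) and without the 10 epithelial-marker cells (red). The marker genes and Pgam1 lie at 0, and Ptgds, Net1, Slc12a2, Cd74 and Gstm5 lose their ratio without the epithelial-marker cells, where Mmp7, Gstm7 and Gk, not drawn, have 0 KO UMIs.

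Slpi (chr2:164354070-164389095, minus strand), which encodes the secretory leukocyte protease inhibitor of mucosal and serous fluids, was the highly expressed gene among them. It had 4984 UMIs in control and 2720 in KO cells, 3544 and 10595 CPM, and a log2 ratio of 1.58 (1.51 to 1.65), or 1.75 (1.68 to 1.81) without the epithelial-marker cells, which held none. In lymphocytes it was at 12.5 and 7.38 CPM. The narrow interval covers the counting of molecules and not the spread between cells, which was wide. In the 102 control cells the level ran from 0 to 296 UMIs per 10000 with a median of 2.49, and in the 16 KO cells from 0 to 348 with a median of 19.9. Slpi was at 0 in 35 control cells (34.3%) and 2 KO cells (12.5%), and at 10 or more per 10000 in 38.2% (28.8 to 48.4) and 56.2% (29.9 to 80.2).

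The levels of single cells overlapped over nearly the whole range between the 2 libraries. The top 5 cells held 41.5% of the control and 96.1% of the KO UMIs. They were 5 of 102 control cells but 5 of 16 KO cells, so these shares do not compare like parts of the libraries. Without the top cell of each library, with 533 and 1045 UMIs, the log2 ratio over all members was 1.20. Across 103 mesothelial cells with at least 2000 UMIs, of which 90 were control cells, the genes whose level followed Slpi most closely were Gm20186 (Spearman's rank correlation 0.51), Fxyd3 (0.49), Prlr, the prolactin receptor (0.47), and Spock2, a secreted proteoglycan (0.46), of 1167 genes with at least 200 UMIs. Col6a5 (−0.38) and Scn3b (−0.33) were the most opposed. Slpi itself had a rank correlation of 0.27 with the UMI total of the cell, and the cells share their library, so these are descriptions of 103 cells and no test was made.

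**Figure D5:**
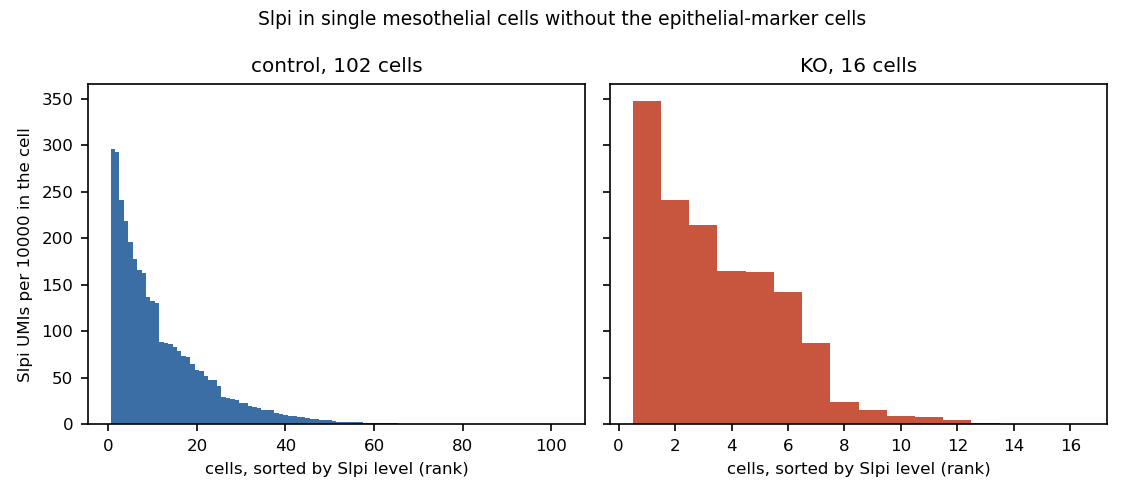
Slpi UMIs per 10000 UMIs of the cell in each of the 102 control (left) and 16 KO cells (right) without epithelial-marker cells, sorted from high to low. Both libraries hold cells from 0 to about the same height (296 and 348), and high cells make up more of the 16 KO cells.

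The genes with the lowest KO to control ratios were led by haemoglobin genes. Hbb-bs was at 4977 and 308 CPM (−4.02, −4.35 to −3.70), Hba-a1 had a ratio of −4.47, Hba-a2 of −4.49 and Hbb-bt of −5.01. The lymphocytes of the 2 libraries held 13185 and 6891 CPM of the erythroid markers, and the 5 control cells named above most of those in the mesothelial cells. Tmem212, Tppp3, Ly6c1 and Dynlrb2 rested on the epithelial-marker cells, which held 229 of 229, 161 of 212, 167 of 188 and 150 of 151 of their control UMIs. Fn1, fibronectin, was at 235 and 19.5 CPM (−3.59, −5.22 to −2.35), or −4.74 (−7.79 to −2.88) without the epithelial-marker cells and −3.37 (−6.43 to −1.48) without mixed cells too, where 2 KO UMIs were left. Dpt, dermatopontin of fibroblasts, had 157 and 1 UMIs, and Sparcl1, a matricellular protein, 127 and 2. Without the epithelial-marker cells the log2 ratio of Dpt was −4.67 (−9.98 to −2.17), and −1.50 (−6.90 to 1.22) when mixed cells were also left out. For Sparcl1 these were −3.36 (−6.42 to −1.48) and −1.60 (−4.71 to 0.38). Lpl, lipoprotein lipase, had 132 and 0 UMIs, 89 of them in 1 control cell. Cpd, a carboxypeptidase, and Gm10076, a ribosomal protein pseudogene whose reads its parent gene may share, completed the 10 without the epithelial-marker cells, with ratios of −2.44 (−4.74 to −0.85) and −2.38 (−4.68 to −0.79), each from 3 KO UMIs.

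The lists gave the following picture, over members with at least 10 UMIs and beside all 10752 such genes, of which 5.48% had an interval above 0 and 5.93% below 0, with a median of 0.04. For the cells without epithelial-marker cells the background was 3.94% and 4.35% of 10025 genes, with a median of 0.06. Of 333 list genes, 46 (13.8%) were above and 80 (24%) below. A KO level 2-fold or more above the control was found for 21 (6.31%) and one 2-fold or more below it for 44 (13.2%), where 7.06% and 6.10% of all genes were. Without the epithelial-marker cells 40 of 323 list genes (12.4%) were above and 59 (18.3%) below. There, 23 lay 2-fold or more above and 43 below, beside 7.37% and 4.93% of all genes. The lists were put together with results of these data known, so these shares are descriptions. A gene with more UMIs has a narrower interval, and list genes and all genes were not matched in UMIs. The shares of intervals above or below 0 thus also depend on the level of the genes. So do the 2-fold shares, for which counts under 3 UMIs were set to 3. The KO cells held 256715 UMIs and the control cells 1406344. A gene with few control UMIs could therefore not count as 2-fold lower. All 656 background genes counted as lower had at least 20 UMIs.

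The interstitial matrix list held 24 such genes, and 19 of them had an interval below 0 and 1 above, with a median of −0.62, or 15 and 1 with a median of −0.45 without the epithelial-marker cells. Col1a1 was at 1742 and 1161 CPM (−0.59, −0.76 to −0.41), and Dcn, decorin, at 11017 and 8137 CPM (−0.44, −0.50 to −0.37). Eln, elastin, was at 429 and 218 CPM (−0.98, −1.40 to −0.58) and Tnxb, tenascin X, at 268 and 109 CPM (−1.30, −1.91 to −0.74). The 1 gene above was Col14a1. The ratios of Col1a1, Dcn, Eln and Tnxb are over all members. Mixed cells were all in the control library, and fibroblast markers, at 19669 and 14522 CPM, moved with this list. These markers were at 21351 and 17663 CPM without the epithelial-marker cells and at 20015 and 17663 CPM without mixed cells too, a smaller gap. In lymphocytes they were at 1074 and 210 CPM, so the level that free RNA could add was also lower in the KO library. The part of mixed cells and free RNA in the list was not tested. Of 20 basement membrane genes 9 were below and 0 above (median −0.62), or 7 and 0 (−0.51) without the epithelial-marker cells, Col4a1 with −1.89 (−2.60 to −1.26) and −1.78 among them.

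Of the 23 complement and host defence genes 7 were above and 4 below 0, with a median of 0.06, or 7 and 4 (0.03) without the epithelial-marker cells. Cfb was at 154 and 312 CPM (1.01, 0.63 to 1.39), and at 1.12 without the epithelial-marker cells. C3 had a ratio of 0.25 (0.17 to 0.33). Both Cfb and C3 were also higher in the KO fibroblasts, at 48.4 against 12.3 CPM and at 4950 against 2634 CPM. Lcn2, lipocalin 2, had a ratio of 1.34 with and −0.73 without the epithelial-marker cells. Ptgs2, the inducible cyclooxygenase, had 59 and 27 UMIs, and 25 of the 27 lay in 1 KO cell.

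Of 17 immediate early genes, which dissociation of tissue is known to induce, 8 were above and 1 below 0 (median 0.46), or 6 and 2 (0.26) without the epithelial-marker cells. Fos was at 737 and 1363 CPM in mesothelial cells, at 599 and 1397 CPM in fibroblasts and at 621 and 1445 CPM in endothelial cells, so the KO library was higher in all 3 cell types. Jun had a ratio of 0.51 with and −0.77 without the epithelial-marker cells. Of 21 glycolysis genes 4 were above and 0 below (median 0.21), or 3 and 0 of 20 (0.25) without them. Ldha, lactate dehydrogenase A, was at 72.5 and 171 CPM (1.24, 0.70 to 1.76), or 0.86 (0.17 to 1.51) without the epithelial-marker cells. Tpi1 was at 154 and 253 CPM (0.72, 0.30 to 1.13). Eno1 had a ratio of 0.96 with and −0.97 without the epithelial-marker cells.

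In the IGF and Wnt axis 2 of 20 genes were above and 4 below (median 0.07), or 2 and 2 (0.08) without the epithelial-marker cells. Igfbp5, which binds IGFs in the matrix, was at 2093 and 4324 CPM (1.05, 0.95 to 1.15), or 1.21 without the epithelial-marker cells, but over all members 0.35 without the top cell of each library. Igfbp4 was at 2084 and 1317 CPM (−0.66, −0.83 to −0.50). Of 14 transport genes 6 were above and 3 below (median 0.34), or 4 and 1 of 13 (0.07) without them. Of 12 MHC and antigen presentation genes 6 were above and 0 below (median 0.29), against 1 and 1 (−0.18) without the epithelial-marker cells. Of 23 interferon-stimulated genes 0 were above and 5 below (−0.20), or 1 and 4 (−0.07), with Gbp7 at 65.4 and 15.6 CPM (−2.07, −3.98 to −0.66). Of 18 adipocyte and progenitor genes 1 was above and 7 below (−0.64), or 3 and 6 of 17 (−0.38), with Cebpb, an adipogenic and acute-phase factor, at 205 and 397 CPM (0.96, 0.62 to 1.29) and Fabp4, which endothelial cells carried at 14288 and 19969 CPM, at 156 and 27.3 CPM.

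Of 13 held-out markers 1, Slpi, was above and 4 were below (median −0.12), or 2 and 0 (0.03) without the epithelial-marker cells. Of 12 coagulation genes 0 were above and 6 below (−0.29), or 1 and 4 of 11 (−0.48), with Thbd at −0.65 (−0.90 to −0.40). Of 11 surface genes 0 and 4 (−0.14) left 0, or 1 and 2 (−0.12). Of 16 transition genes 2 and 5 did (−0.26), or 1 and 4 (−0.11), with Tagln, a contractile cell protein, at 240 and 77.9 CPM (−1.62, −2.35 to −0.97). Of 17 transcription factors 1 and 2 did (−0.20), or 0 and 2 (−0.19), and the 1 above was Sox9, with 1.80 (1.28 to 2.31) in all cells, of which 15 control and 1 KO UMIs were left without the epithelial-marker cells.

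The retinoid list had 1 gene above and 2 below of 10 (−0.43), or 1 and 2 (−0.32), and the junction list 0 and 1 of 16 (0.30), or 3 and 1 of 14 (0.22). Among 16 clock genes 3 were above and 2 below (0.40), or 2 and 1 (0.39), with Nr1d1, which encodes the repressor REV-ERB alpha, at 137 and 58.4 CPM (−1.22, −2.09 to −0.47) and in fibroblasts at 139 and 16.8 CPM. Of 14 heat shock chaperones 2 were above and 2 below (0.09), or 2 and 0 (0.23), with Hspa5, the chaperone of the endoplasmic reticulum, at 727 and 1243 CPM in mesothelial cells and at 629 and 1087 CPM in fibroblasts. Of 8 iron and metallothionein genes 2 were above and 3 below (0.11), or 1 and 1 (−0.14), of 6 keratin and vimentin genes 0 and 1 (−0.08), or 0 and 0 (−0.02), of 10 cell cycle genes 1 and 0 (0.42), or 1 and 0 of 7 (0.32), and of 3 beige genes 0 and 0 (0.28), or 0 and 0 of 2 (0.20). The rule genes and the uroplakins, with medians of −0.13 and −0.09, or 0.04 and 0.07, lay beside 0.04 and 0.06 for all genes.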

How the data were processed

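The deposited files held UMI counts per gene and cell barcode, which the authors made with Cell Ranger 3.0.1 from 10x Chromium 3′ v3 libraries against mm10, one matrix per library (8522 and 2730 barcodes, 28692 genes). The lowest barcode total was 500 UMIs. The kept barcodes had 500 or more genes and a mitochondrial share of 10% or less, no doublet was removed, and cells were selected by marker UMIs. The members and the gene lists were chosen with earlier results of these data known.

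UMIs were summed per library and cell type. Cell types were compared with edgeR 4.0.16 (R 4.3.3), with TMM factors, filterByExpr, a quasi-likelihood fit with library and cell type as terms on 6 sums (2 residual degrees of freedom), and Benjamini-Hochberg adjustment over 10762 genes at 0.05. The library term pairs sums of the same preparation, as each library gave all its cell types. KO and control were set side by side as log2 ratios of CPM with exact conditional binomial intervals, and against 0 UMIs a floor of 3 UMIs was used. In counts of 2-fold differences, all counts under 3 UMIs were set to 3. Genes with at least 50 UMIs entered counts of 2-fold differences, and those with at least 10 the lists. Shares have exact Clopper-Pearson and levels exact Poisson 95% intervals. Named genes were the 15 largest differences higher against both cell types and the 10 largest lower than in fibroblasts, the 10 highest and 10 lowest KO to control ratios, the 5 genes outside the rule that thinned cells separated most from lymphocytes, and genes of the lists, and the ratios without the epithelial-marker cells were ranked in the same way after the data were seen. Coordinates are those of GENCODE vM21 (GRCm38), which held 28416 of 28692 gene IDs. Clustering used Leiden at resolution 0.5 on 2000 variable genes and 30 components (scanpy 1.11.5). Steps across genes were also run on data simulated from the levels in these cells, after the fits, and the outcome is not given here. Alternatives with other cell filters, thresholds, scalings, tests and doublet removal were computed, and 2 that leave out epithelial-marker cells were chosen after seeing the data.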

Additional observations from a re-analysis of the deposited data

Results flagged for a closer look

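For 5 genes the KO to control ratio in mesothelial cells, without the epithelial-marker cells, lay past 2-fold on one side with an interval that left out 0, while that in another cell type lay past 2-fold on the other side. With 1 library per genotype none of these differences between cell types was tested. C4b, a complement component, had a log2 ratio of −1.58 in mesothelial cells and 1.27 in fibroblasts. Isg15, an interferon-stimulated gene, had −1.19 and 1.33 in the same cell types. Cmah had 3.25 in mesothelial cells and −2.18 in fibroblasts. Igfbp5 had 1.21 in mesothelial and −2.16 in endothelial cells. For Lpl the mesothelial value was a bound of −2.82, set by 0 KO UMIs, and the endothelial value was 1.10. As given above, most KO UMIs of Cmah and most control UMIs of Lpl in mesothelial cells lay in 1 cell. Over all members and without the top cell of each library, the ratio of Igfbp5 was smaller and that of Cmah stayed above 0. Lymphatic markers of the endothelial cells also differed between the libraries, at 3817 and 1422 CPM, and their part in these values was not tested.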

How the results depend on the processing

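The KO to control values rest on 1 library per genotype and on 19 KO cells with 256715 UMIs, which limits the ratios of genes with few UMIs. Leaving out a library leaves 1 sum per cell type and no residual degrees of freedom, so no such test was made. Without the replicate block (library left out as a term) 1371 genes were higher and 1216 lower than in fibroblasts, and 1937 and 1590 than in endothelial cells. In cells thinned to 2000 UMIs these numbers were 476 and 582 against fibroblasts and 713 and 765 against endothelial cells, and by DESeq2 978 and 725, and 1365 and 1172. The control share was 3.43% with filters of 1000 genes and 5% mitochondrial UMIs and 2.24% without epithelial-marker and mixed cells. The log2 ratio of Pgam1 stayed between −0.46 and 0.05.

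The median log2 ratio of the held-out markers was 7.03 with 1000 genes and 5%, 6.96 without doublets, 6.16 in thinned cells and 6.21 as a mean over cells in the control library. In the KO library it was 6.62 with 200 genes and 20%, 6.25 with 1000 genes and 5%, 6.47 at a rule sum of 8, 5.02 thinned, 6.44 without epithelial-marker cells with or without the mixed cells, 6.55 at 1 UMI and 6.53 as a mean over cells. Genes 2-fold higher in KO cells numbered 17 in thinned cells, 63 without epithelial-marker and mixed cells, 262 as a mean over cells, 62 without the top cell, 413 at 20 UMIs and 18 at 200 UMIs. Genes 2-fold lower numbered 607 with 200 genes and 20%, 49, 195, 759, 714, 656 and 30 in that order. List genes 2-fold higher numbered 34 in thinned cells, 32 as a mean over cells and 87 at 1 UMI. List genes 2-fold lower numbered 28 at a rule sum of 8, 18 in thinned cells and 24 without epithelial-marker and mixed cells.

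Against fibroblasts, H2-Ab1 reversed to −0.058 with 1000 genes and 5% and to −0.0014 at a rule sum of 8, H2-Aa to −0.16 at that sum and −0.054 without epithelial-marker cells, and Cd74 to −0.30, −0.13 and, without mixed cells too, −0.10. Slc39a4 against endothelial cells reversed to −0.076 with 1000 genes and 5%. None of these reversed values was called. Besides them, calls against fibroblasts were lost without a change of sign in 7 alternatives for H2-Ab1, 6 for C3 and 5 for H2-Aa. For Col3a1 this was so in 3 and for Cd74 in 1, while Vim, not called in the report, was called lower in 5. In the KO to control ratios, with 1000 genes and 5%, Lcn2 was at −0.87, Ptgs2 at −1.02, Cd74 at −0.83 and Gstm5 at −1.27. At a rule sum of 8, Sox9 was at −0.10, Lcn2 at −0.76, Cd74 at −1.73, Ptgds at −0.47 and Gstm5 at −0.59. In the Leiden cluster Lcn2 was at −0.83, Cd74 at −3.00 and Gstm5 at −0.34. Without epithelial-marker cells Lcn2 was at −0.73, Cd74 at −1.49 and Gstm5 at −0.52, and without mixed cells too these were −0.84, −1.50 and −0.46, with Ptgds and Slc12a2 both at −0.015. Without the top cell Ptgs2 was at −1.58, Ptgds at −0.024 and Prr15 at −0.31. Gm10076 was at 0.86 in thinned cells. The cause of these moves was not tested.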
